A study of Equus caballus with 68 samples.

Results

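The 9 genes described here encode transcription factors that direct the development and activation of monocytes and macrophages: SPI1, CEBPA, CEBPB, IRF8, KLF4, MAF, ZEB2, EGR2 and BHLHE40. They were chosen by name, and each matched a single row of the 30371 genes of the deposited expression table. All 9 were among the 14570 genes that passed the filter on low values, which asked for a level of 0.5 GeTMM or more in 7 or more libraries. GeTMM is a read count scaled for library composition and for gene length, so levels can be set side by side between genes as well as between libraries.

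Bone marrow mononuclear cells (BMNC) came from 8 adult Thoroughbred horses aged 3 to 9 years (median 5) with healthy joints. Cells of each horse were sequenced before culture (0 hours, n = 8) or after culture in that animal's own undiluted synovial fluid. The fluid was either normal (SF), from healthy middle carpal joints, or inflamed (ISF), from radiocarpal joints injected with lipopolysaccharide. Inflammation and joint of origin therefore cannot be told apart. In each fluid 7 horses were sampled at 48 hours and at 10 days, and 8 in between, at 96 hours and 6 days, with 1 library for each horse, fluid and time. The series holds no library of the horse Moon at 48 hours and none of Flash at 10 days. Cells were not sorted, so every library held the RNA of a mixture, and a smaller share of a cell type and less RNA per cell cannot be told apart in these values.

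Myeloid cells acquire their identity through a small set of DNA-binding proteins that act together. SPI1 (PU.1) opens enhancers across the lineage and binds them with partners such as CEBPA, CEBPB and IRF8, and the balance among these partners biases progenitors toward granulocytes, monocytes or dendritic cells. KLF4 promotes monocyte differentiation, whereas MAF accompanies terminal macrophage maturation, and signal-responsive factors such as EGR2 and BHLHE40 are switched on as macrophages are activated or begin to divide.

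Libraries held 15.7 M to 36.0 M reads on genes (median 22.3 M), and the members were covered by 12 to 25964 reads each. The sparsest was EGR2, with 12 to 1387 reads per library, whereas SPI1 had at least 7007 in each. The SF library of Moon at 6 days stood apart, with a GeTMM sum of 2321940 against 1458340 in the next library and a median of 979669. It held 173 reads of ZEB2 and 12 reads of EGR2, so some results at 6 days are also given without it. The 96-hour ISF libraries labelled Dealings and Dreamer each resembled the other horse over the 200 genes that varied most between animals, with correlations of 0.96 and 0.92. Results at 96 hours that rest on horses are therefore given with and without these 2 libraries.

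The cell types present were checked with marker genes. The mean log2(GeTMM + 1) of 7 macrophage markers was 3.98 at 0 hours, 10.6 in SF and 11.0 in ISF at 10 days. The 6 monocyte markers present went the other way, from 7.38 to 4.67 in SF and 4.06 in ISF, as did 6 neutrophil precursor markers, from 10.2 to 3.98 in SF and 1.91 in ISF. The 8 T and natural killer cell markers summed to 24.3 to 203 GeTMM in SF and 4.83 to 15.4 GeTMM in ISF at 10 days, without overlap. The 7 B and plasma cell markers present overlapped, at 138 to 1168 in SF and 55.9 to 177 in ISF.

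Over the whole course, all 9 factors changed in both fluids, and SPI1 had the highest mean level of the 9 in every group except ISF at 48 hours, where CEBPB averaged 929 ± 264 GeTMM (SD, n = 7) and SPI1 781 ± 114. From 0 hours to 10 days, 6 rose and 3 fell in SF, where 34.7% of tested genes were called higher and 34.9% lower (limma on log2(GeTMM + 1), FDR below 0.05). In ISF 5 rose and 4 fell, against 36.1% and 38.4% of tested genes. The 2 courses share the 0-hour libraries. In all, 69.6% of tested genes were called in SF and 74.5% in ISF, so a call here was shared by most genes. BHLHE40, EGR2, CEBPA, ZEB2 and MAF rose in both fluids, and KLF4, CEBPB and SPI1 fell in both. IRF8 was the member that rose in SF and fell in ISF. The median log2 fold change of the members was 1.53 in SF and 0.91 in ISF, against -0.01 and -0.03 over all tested genes.

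**Figure D1:**
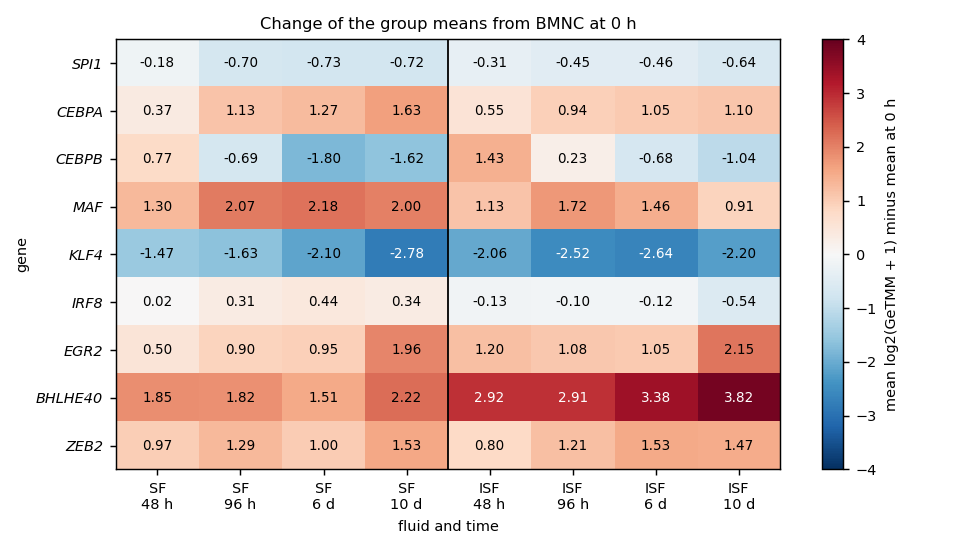
Heat map of the mean change of each factor (rows) from 0 hours, as log2 of GeTMM + 1, at each of the 4 culture times in SF and in ISF (columns), with red for higher and blue for lower. BHLHE40 is highest in ISF (3.82 at 10 days), KLF4 has the lowest value of the 9 at 10 days in both fluids (-2.78 in SF and -2.20 in ISF), and CEBPB passes from above 0 at 48 hours to below 0 at 10 days.

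SPI1, the lineage-defining ETS factor, was abundant in every group and declined over culture. It ranged from 778 to 1221 GeTMM at 0 hours (median 926). At 10 days it ranged from 469 to 680 in SF (median 624) and from 509 to 696 in ISF (median 639). The 10-day ranges lay below the 0-hour range in both fluids, and the level was lower in 7 of 7 horses in each. The log2 fold change was -0.72 ± 0.13 (SE) in SF (FDR = 1.22e-06) and -0.64 ± 0.13 in ISF (FDR = 9.89e-06). Different intervals passed the test in the 2 fluids. A difference between the fluids in the change from 48 to 96 hours was not called, and passed in 1 of 19 alternative analyses. In SF the drop lay between 48 and 96 hours (-0.52 ± 0.13, FDR = 0.00103, lower in 7 of 7 horses), from 861 ± 150 (SD, n = 7) to 600 ± 125 GeTMM (n = 8). In ISF the change from 0 to 48 hours passed (-0.31 ± 0.13, FDR = 0.0323), but without Catnip, Dealings, Dreamer, Flash or Lurie its FDR was 0.0615, 0.0799, 0.135, 0.0811 or 0.0709. From 6 to 10 days in ISF the level was also lower in 7 of 7 horses, though that interval did not pass.

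CEBPA, which drives early myeloid commitment and granulocyte fate, rose steadily in SF and less far in ISF. It ranged from 24.3 to 42.1 GeTMM at 0 hours (median 35.1). The 10-day values ran from 88.0 to 136 in SF (median 101) and from 47.5 to 95.5 in ISF (median 81.4). All 10-day values lay above the highest 0-hour value, and the fluids overlapped. The net log2 fold change was 1.63 ± 0.20 in SF (FDR = 6.19e-11) and 1.10 ± 0.20 in ISF (FDR = 1.15e-06). The interval from 48 to 96 hours passed in SF (0.76 ± 0.20, FDR = 0.002). In ISF the first 48 hours passed (0.55 ± 0.20, FDR = 0.0152), though not without Catnip (FDR = 0.0505). With horse as a replicate block, the ISF interval from 48 to 96 hours passed as well (0.44, FDR = 0.0483).

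CEBPB, an inflammation-inducible partner of SPI1, peaked early and then fell below its starting level. At 0 hours it ranged from 252 to 552 GeTMM (median 327). At 48 hours the range was 299 to 839 in SF (median 568) and 677 to 1394 in ISF (median 764). By 10 days it ranged from 89.6 to 138 in SF (median 96.4) and from 86.9 to 295 in ISF (median 169). The 48-hour ISF values lay entirely above the 0-hour values, whereas those in SF overlapped them, and the 10-day SF values lay entirely below. The early rise was 1.43 ± 0.25 in ISF (FDR = 1.44e-06) and 0.77 ± 0.25 in SF (FDR = 0.0083, or 0.0515 without Ollie). The fall from 48 to 96 hours was -1.46 ± 0.25 in SF (FDR = 3.92e-06) and -1.20 ± 0.25 in ISF (FDR = 0.000208), in 7 of 7 horses each (5 of 5 in ISF without Dealings and Dreamer). A further fall followed by 6 days, of -1.10 ± 0.24 in SF (FDR = 0.00295) and -0.91 ± 0.24 in ISF (FDR = 0.0119), in 8 of 8 horses each (6 of 6 in ISF without those 2 horses). The SF value was not called when only the compared groups were fitted (FDR = 0.0837), nor the ISF value without Dealings (FDR = 0.0564) or Ollie (FDR = 0.0772).

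As CEBPA rose and CEBPB fell, their relative level shifted. The median ratio of CEBPB to CEBPA was 8.84 at 0 hours. It was 16.2, 2.66, 1.28 and 0.959 in SF at 48 hours, 96 hours, 6 days and 10 days, and 19.2, 5.70, 2.85 and 1.99 in ISF. CEBPB was thus the more abundant of the pair in every ISF library, where the lowest ratio was 1.27, whereas in SF at 10 days the ratio ranged from 0.742 to 1.53. These ratios were not tested.

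KLF4, a promoter of monocyte differentiation, showed the largest net fall. It ranged from 56.6 to 120 GeTMM at 0 hours (median 78.1). At 48 hours it ranged from 22.8 to 50.3 in SF (median 24.2) and from 13.6 to 33.6 in ISF (median 17.2). No value at 48 hours reached the 0-hour range, and the level was lower in 7 of 7 horses in each fluid. The log2 fold change over these 48 hours was -1.47 ± 0.26 in SF (FDR = 3.75e-06) and -2.06 ± 0.26 in ISF (FDR = 8.52e-10). In SF the level went on down to 11.1 ± 2.65 GeTMM at 10 days (SD, n = 7), for a net change of -2.78 ± 0.26 (FDR = 1.5e-14). No later interval passed the test in either fluid, with or without the replicate block. KLF4 was nevertheless lower at 6 days than at 96 hours in SF in 8 of 8 horses, without overlap (-0.47 ± 0.25, FDR = 0.342), and lower at 10 days than at 6 days in 7 of 7 (-0.69 ± 0.26, FDR = 0.105, or 0.0724 with the block). Without Moon's 6-day library the FDR was 0.542 and 0.142. In ISF the mean was 13.9 ± 4.83 GeTMM at 96 hours and 18.4 ± 9.45 at 10 days. Animals spread widely in ISF at 6 days (mean 14.9 ± 10.0, n = 8), from 3.22 GeTMM in Ollie to 30.4 in Catnip, with Flash at 27.2, against 14.2 to 21.3 in SF.

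IRF8, which steers progenitors toward monocytes and dendritic cells and is also expressed in B cells, separated by fluid. It ranged from 42.2 to 77.3 GeTMM at 0 hours (median 64.4). The range at 10 days was 66.2 to 116 in SF (median 74.2) and 29.1 to 58.6 in ISF (median 39.2). The fluids did not overlap at 10 days, while both overlapped the 0-hour values. The net change was 0.34 ± 0.12 in SF (FDR = 0.0118), with a rise in 6 of 7 horses, and -0.54 ± 0.12 in ISF (FDR = 7.74e-05), with a fall in 5 of 7. The SF call was lost without Lurie (FDR = 0.0698) and with library weights (FDR = 0.0667). Of the single intervals, that from 6 to 10 days in ISF passed (-0.42 ± 0.12, FDR = 0.0166), but its FDR was 0.0607, 0.0959 and 0.0731 without Dealings, Ollie and RimRun. In SF the change from 48 to 96 hours missed the threshold (0.29 ± 0.12, FDR = 0.0679) and passed it with a replicate block (FDR = 0.0431).

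MAF, a large Maf factor of mature macrophages, rose from a low level. It ranged from 3.87 to 8.65 GeTMM at 0 hours (median 7.01). At 10 days it ranged from 11.2 to 51.1 in SF (median 29.6) and from 4.21 to 35.4 in ISF (median 12.9). All SF values exceeded the 0-hour range, whereas ISF values overlapped it. The first 48 hours accounted for a called rise in both fluids, of 1.30 ± 0.39 in SF (FDR = 0.00435) and 1.13 ± 0.39 in ISF (FDR = 0.0114). The net change was 2.00 ± 0.39 in SF (FDR = 6.77e-06) and 0.91 ± 0.39 in ISF (FDR = 0.0305). The net ISF call was lost without Catnip (FDR = 0.106), Dreamer (0.0984), Flash (0.0504) or Lurie (0.0746), and by voom on recovered reads (0.0762). With a replicate block, the rise in SF from 48 to 96 hours passed too (0.89, FDR = 0.029), which it did not otherwise (FDR = 0.135).

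ZEB2, a zinc-finger repressor that favours monocytes over conventional dendritic cells, rose in both fluids. It ranged from 25.3 to 53.6 GeTMM at 0 hours (median 34.1). By 10 days the range was 75.1 to 146 in SF (median 119) and 75.9 to 148 in ISF (median 103). Every 10-day value lay above the 0-hour range and the fluids overlapped almost fully. The net change was 1.53 ± 0.32 in SF (FDR = 2.27e-05) and 1.47 ± 0.32 in ISF (FDR = 3.73e-05). The first 48 hours passed in SF (0.97 ± 0.32, FDR = 0.00926) and in ISF (0.80 ± 0.32, FDR = 0.0294). The latter call was lost without Catnip, Dealings, Dreamer, Lurie or Ollie (FDR = 0.0979, 0.073, 0.0733, 0.077 and 0.0761).

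EGR2, an immediate early zinc-finger factor induced by growth factor signalling, had the lowest mean level of the 9 members at 0 hours and in both fluids up to 6 days. It ranged from 1.92 to 4.90 GeTMM at 0 hours (median 2.94). The 10-day range was 9.19 to 26.2 in SF (median 12.99) and 9.01 to 34.2 in ISF (median 14.2). Both 10-day ranges lay above the 0-hour range and overlapped each other. The net change was 1.96 ± 0.40 in SF (FDR = 1.98e-05) and 2.15 ± 0.40 in ISF (FDR = 3.05e-06). The first 48 hours passed in ISF (1.20 ± 0.40, FDR = 0.0095) and not in SF (0.50 ± 0.40, FDR = 0.323). Between 6 and 10 days in ISF the change was 1.10 ± 0.40 (FDR = 0.0678), which passed with a replicate block (FDR = 0.024) and after removal of Moon's 6-day SF library (FDR = 0.032).

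BHLHE40, a basic helix-loop-helix repressor linked to macrophage proliferation and cytokine control, rose more than any other member. It ranged from 6.48 to 30.3 GeTMM at 0 hours (median 8.44), Flash being the highest. At 48 hours it ranged from 27.4 to 67.5 in SF (median 36.2) and from 58.3 to 135 in ISF (median 87.7). At 10 days it ranged from 32.4 to 78.7 in SF (median 55.5) and from 87.7 to 362 in ISF (median 146). ISF values lay above the 0-hour range from 48 hours on, and the rise occurred in 7 of 7 horses in each fluid. Over the first 48 hours it was 2.92 ± 0.29 in ISF (FDR = 1.77e-13) and 1.85 ± 0.29 in SF (FDR = 1.85e-07). The net change was 3.82 ± 0.29 in ISF (FDR = 9.3e-19) and 2.22 ± 0.29 in SF (FDR = 5e-10).

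**Figure D2:**
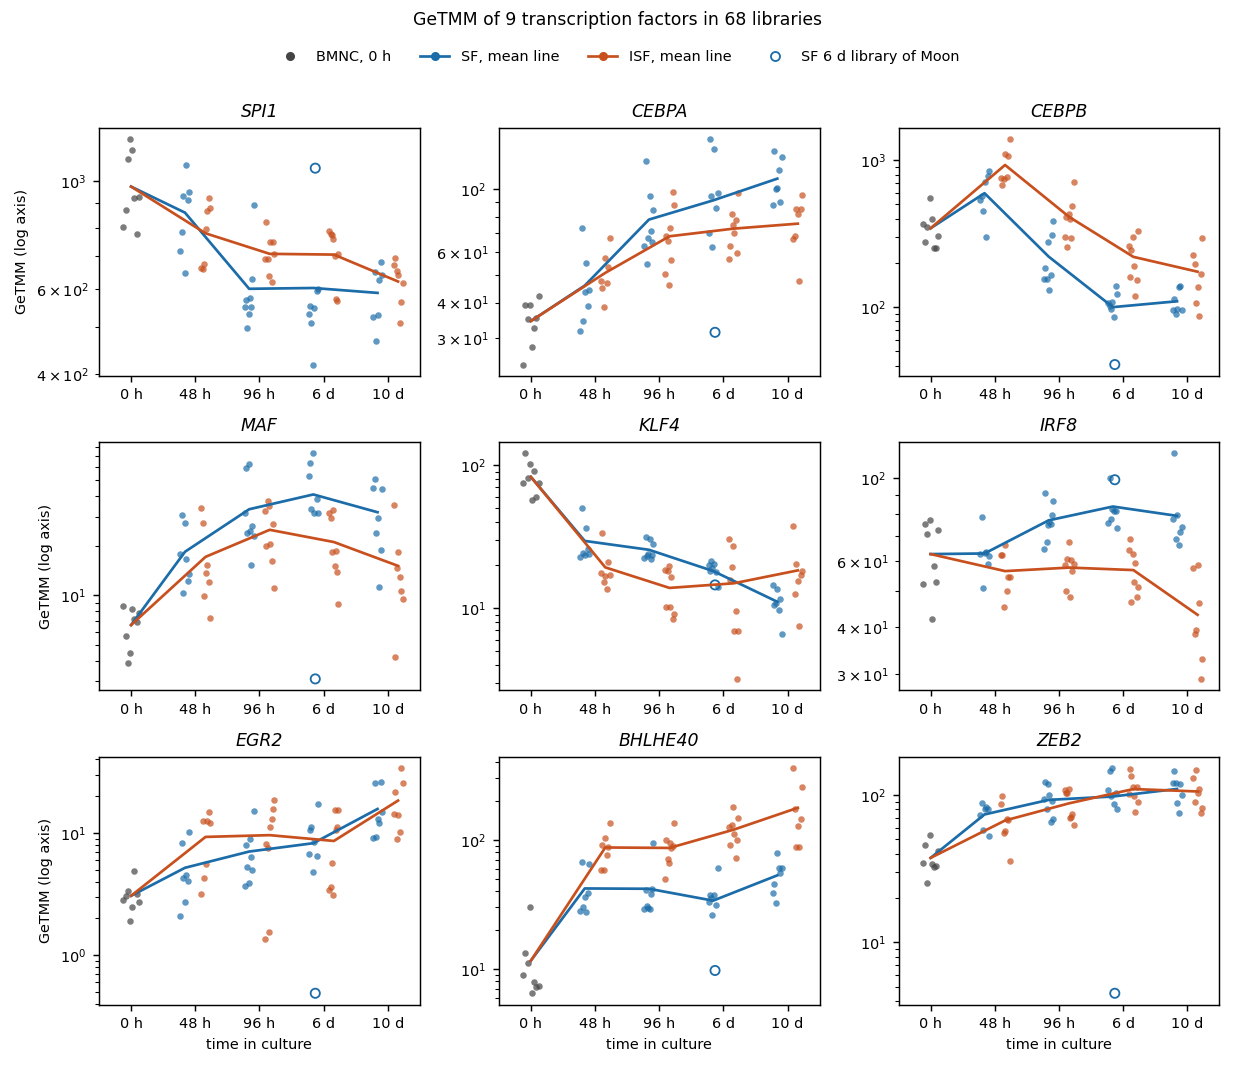
GeTMM of each of the 9 factors in all 68 libraries (log axis), by time and fluid, with 1 point per library and lines through the group means. Open circles are the 6-day SF library of Moon. It is the lowest of its group for CEBPA, CEBPB, MAF, EGR2, BHLHE40 and ZEB2 (31.5, 40.6, 3.10, 0.488, 9.73 and 4.51 GeTMM). BHLHE40 and IRF8 show separate ranges for the fluids at 6 and 10 days.

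The first interval held the most calls, among the members as among all tested genes. From 0 to 48 hours, 5 members passed in SF (45.4% of tested genes called), 4 upward and 1 downward, where 22.3% of tested genes were called higher and 23.1% lower. In ISF 8 passed (52.7%), 6 upward and 2 downward, against 25.3% and 27.4%, IRF8 being the exception. From 48 to 96 hours, 3 passed in SF (27.3%) and 1 in ISF (19%). From 96 hours to 6 days, CEBPB alone passed in SF (2.05%) and in ISF (6.38%). From 6 to 10 days, IRF8 passed in ISF (10.5%) and 0 members passed in SF (4.78%), where 3 had an unadjusted p below 0.05, voom on recovered reads called 0, and a replicate block called BHLHE40 (0.75, FDR = 0.0474).

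The fluids were compared at each time to ask how the levels of these regulators differed between cultures in inflamed and normal fluid. BHLHE40 was higher in ISF at all 4 times and CEBPB at 96 hours and 6 days, while IRF8 was lower from 96 hours on, KLF4 at 96 hours and MAF at 10 days. At 48 hours, 1 of 9 members passed (1.68% of tested genes called). At 96 hours 4 passed (10.5%). At 6 and 10 days it was 3 each (30.2% and 20.8%). The median log2 fold change of the members was -0.14, -0.08, 0.11 and 0.08 at these times, against -0.02, -0.0027, 0 and -0.02 over all tested genes, since members moved in opposite directions.

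**Figure D3:**
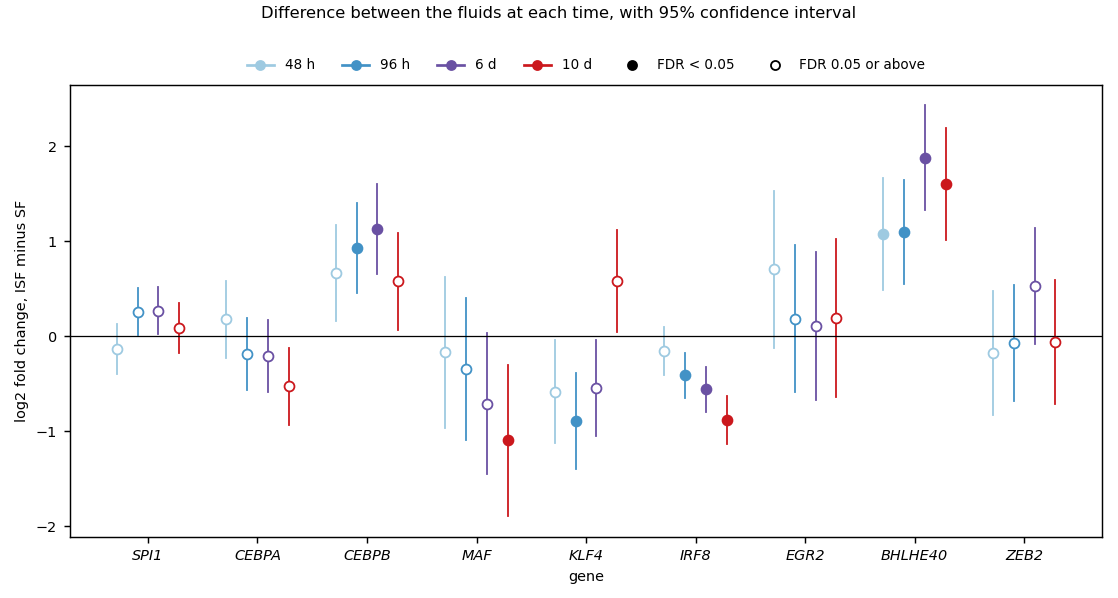
Difference between fluids (ISF minus SF, log2 of GeTMM + 1) for each factor at each culture time, with its 95% confidence interval and filled points for FDR below 0.05. BHLHE40 lies above 0 at every time (1.07, 1.10, 1.88 and 1.60), and IRF8 moves from -0.15 at 48 hours to -0.88 at 10 days.

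BHLHE40 was higher in ISF in 7 of 7, 8 of 8, 8 of 8 and 7 of 7 horses in order of time, and in 6 of 6 at 96 hours without Dealings and Dreamer. At 6 days it ranged from 9.73 to 60.4 GeTMM in SF (median 34.3) and from 72.7 to 180 in ISF (median 118). The ranges did not overlap at 6 or 10 days. The difference was 1.10 ± 0.28 at 96 hours (FDR = 0.00495), 1.88 ± 0.28 at 6 days (FDR = 2.79e-07) and 1.60 ± 0.29 at 10 days (FDR = 4.39e-05). Without the SF library of Moon the 6-day value was 1.65. At 48 hours it was 1.07 ± 0.29 (FDR = 0.0397), and the FDR was 0.104, 0.0521, 0.125, 0.0826, 0.156 and 0.135 without Catnip, Dealings, Dreamer, Flash, Lurie and Ollie. At 10 days the animals diverged in ISF, from 87.7 GeTMM in Moon and 88.4 in Dreamer to 257 in RimRun and 362 in Catnip.

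CEBPB showed the same direction with a smaller difference. At 96 hours it ranged from 131 to 388 GeTMM in SF (median 174) and from 255 to 715 in ISF (median 405). At 6 days the ranges were 40.6 to 138 (median 103.6) and 120 to 328 (median 217). Without the SF library of Moon, the SF range at 6 days was 85.2 to 138. Ranges overlapped at both times, but ISF was higher in 8 of 8 horses at each, and in 6 of 6 at 96 hours without Dealings and Dreamer. The difference was 0.93 ± 0.24 at 96 hours (FDR = 0.00588) and 1.12 ± 0.24 at 6 days (FDR = 0.000183). The values at 48 hours (0.66 ± 0.25, FDR = 0.179) and 10 days (0.58 ± 0.25, FDR = 0.0983) missed the threshold and passed it with a replicate block (FDR = 0.0322 and 0.0205). At 10 days Moon was lower in ISF (86.9 against 136 GeTMM), the other 6 horses were higher, and without Moon the comparison passed (FDR = 0.0136).

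IRF8 was lower in ISF in 6 of 7, 8 of 8, 8 of 8 and 7 of 7 horses in order of time. At 6 days it ranged from 73.5 to 100.05 GeTMM in SF (median 81.4) and from 46.8 to 68.6 in ISF (median 56.1), with no overlap. The difference was -0.56 ± 0.12 at 6 days (FDR = 0.000184) and -0.88 ± 0.13 at 10 days (FDR = 4.62e-07). At 96 hours it was -0.41 ± 0.12 (FDR = 0.0157). That call was lost without Dealings (FDR = 0.0587), Lurie (0.0511) or the 2 ISF libraries in doubt (0.0528), although ISF stayed lower in 6 of 6 of the remaining horses. IRF8 is also a B cell and dendritic cell gene. The mean log2 level of 7 of 8 B and plasma cell markers at 10 days was 3.37 in SF and 1.78 in ISF (summed GeTMM 138 to 1168 and 55.9 to 177), and that of 6 of 8 dendritic cell markers was 1.16 and 0.79 (7.92 to 18.9 and 4.64 to 7.55), with no present marker of either list at 0 throughout a group. Their part in the IRF8 result was not tested.

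KLF4 was lower in ISF early and higher in most horses late. At 96 hours it ranged from 21.9 to 31.7 GeTMM in SF (median 23.7) and from 8.38 to 19.7 in ISF (median 13.4). The ranges did not overlap, and ISF was lower in 8 of 8 horses, or 6 of 6 without Dealings and Dreamer. The difference was -0.90 ± 0.25 (FDR = 0.0137), and without Dealings, Lurie or RimRun the FDR was 0.0568, 0.0658 or 0.0504. ISF was lower in 7 of 7 horses at 48 hours (-0.59 ± 0.27, FDR = 0.301) and in 6 of 8 at 6 days (-0.54 ± 0.25, FDR = 0.0978, or 0.0323 without Catnip and 0.0482 without Flash). At 10 days it was higher in 6 of 7 horses (0.58 ± 0.27, FDR = 0.121), at 7.54 to 37.6 GeTMM against 6.63 to 14.7 in SF.

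MAF differed late. At 10 days the difference was -1.10 ± 0.40 (FDR = 0.0404), ISF being lower in 6 of 7 horses and higher in Moon. The ranges overlapped, and Dealings held the widest gap, with 51.1 GeTMM in SF and 4.21 in ISF. The FDR was 0.27, 0.0693, 0.0756, 0.0722 and 0.136 without Dealings, Dreamer, Lurie, Ollie and RimRun. The call was also lost with no filter on low values and when only the compared groups were fitted. At 6 days the difference was -0.71 ± 0.37 (FDR = 0.146) with all libraries and -1.14 (FDR = 0.00425) without the SF library of Moon, after which SF ranged from 31.5 to 73.0 GeTMM against 8.80 to 33.2 in ISF. MAF is expressed in T cells and stromal cells as well as in macrophages. The T and natural killer cell markers had a mean log2 level of 2.85 in SF and 0.98 in ISF at 10 days. The 5 fibroblast or stromal markers had 3.53 and 0.63, with summed levels from 0.406 to 4038 GeTMM in SF and from 0.123 to 49.2 in ISF. The part of these cells in the MAF result was not tested.

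The remaining members gave smaller differences. CEBPA was lower in ISF in 7 of 7 horses at 10 days (-0.53 ± 0.20, FDR = 0.0516), which passed with a replicate block (FDR = 0.0172) and after removal of Moon's 6-day SF library (FDR = 0.0186). SPI1 was higher in ISF in 7 of 8 horses at 96 hours, or 5 of 6 without Dealings and Dreamer (0.26 ± 0.12, FDR = 0.183), and in 6 of 8 at 6 days (0.27 ± 0.12, FDR = 0.0901). Without the SF library of Moon, which held 1064 GeTMM of SPI1, the 6-day difference was 0.39 (FDR = 0.0037). Neither EGR2 nor ZEB2 passed at any time. Their widest differences were 0.70 ± 0.41 for EGR2 at 48 hours (FDR = 0.461, higher in 6 of 7 horses) and 0.53 ± 0.31 for ZEB2 at 6 days (FDR = 0.192), which was -0.01 without that library. The 95% interval of the ZEB2 difference at 10 days ran from -0.72 to 0.59.

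**Figure D4:**
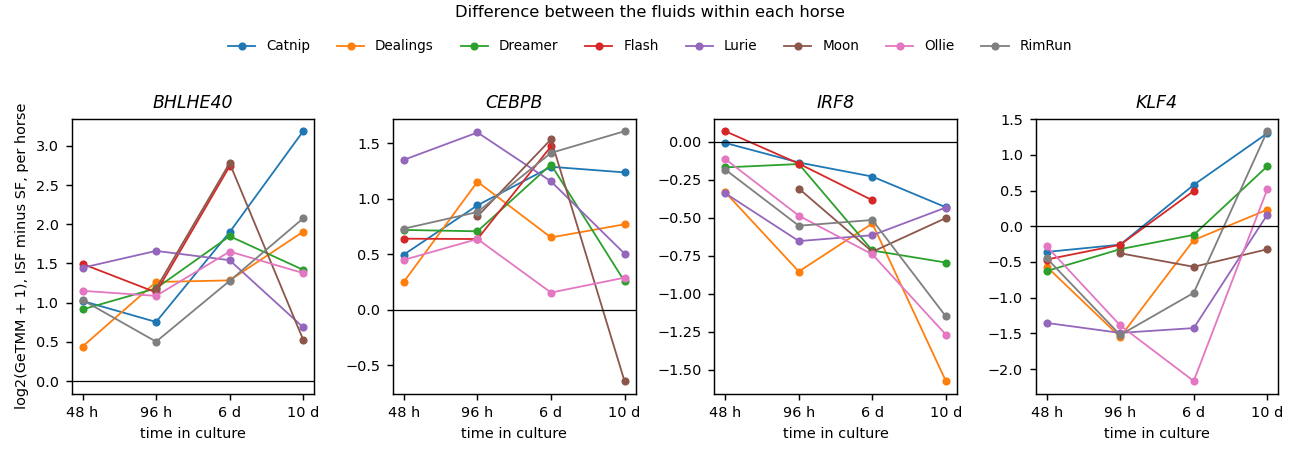
ISF minus SF (log2 of GeTMM + 1) within each horse for BHLHE40, CEBPB, IRF8 and KLF4 at 4 times, with 1 coloured line per horse. The doubtful 96-hour ISF libraries of Dealings and Dreamer are placed by their labels. BHLHE40 lies above 0 in every horse at every time and IRF8 below 0 in every horse from 96 hours on, whereas KLF4 crosses from below 0 in all horses at 96 hours to above 0 in 6 of 7 at 10 days.

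Whether the fluid difference itself changed was tested as an interaction. Between 48 hours and 10 days, 1 member passed (2.99% of tested genes called). The IRF8 difference widened by -0.73 ± 0.18 (FDR = 0.0128), but its FDR was 0.0755 without Ollie and 0.0505 without RimRun. For KLF4 the shift was 1.17 ± 0.38 (95% interval 0.40 to 1.93, FDR = 0.0734), which passed with a replicate block (FDR = 0.0316) and without Moon (FDR = 0.0301). For BHLHE40 it was 0.53 ± 0.42 (95% interval -0.31 to 1.36), so the BHLHE40 difference was not shown to grow over the course. Over the shorter intervals limma called 0 members, with 0.0206%, 0% and 0.226% of all genes called from 48 to 96 hours, 96 hours to 6 days and 6 to 10 days. In each of these 1 member had an unadjusted p below 0.05, and voom called 0.

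Individual horses kept characteristic levels of some members. With Moon's 6-day SF library left out, horse identity took up 54.3% of the variance within groups for EGR2, 48.4% for ZEB2 and 46.3% for CEBPB, against a median of 27.9% over tested genes. These shares stood at the 93.8, 89.0 and 86.8 percentiles of tested genes, and that of SPI1 (18.3%) at the 23.1 percentile. Without the 2 doubtful 96-hour ISF libraries as well, the shares were 54.6%, 48.1%, 45.8% and 18.3% (median 29.0%). EGR2 lay below the group mean in all 9 libraries of Catnip and all 7 of Flash, and above it in 8 of 9 of RimRun and of Dealings (7 of 8 of Dealings without the doubtful library). At 96 hours in ISF, for example, Catnip and Flash held 1.36 and 1.63 GeTMM of EGR2 and RimRun 18.5. MAF lay above the group mean in 9 of 9 libraries of Catnip, and CEBPB in 7 of 7 of Flash.

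**Figure D5:**
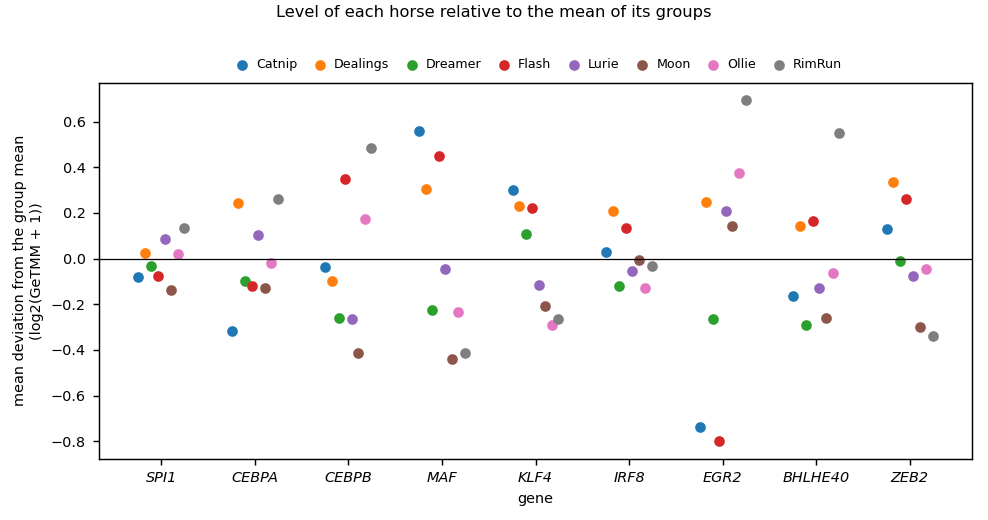
Mean deviation of each horse's libraries from their group means (log2 of GeTMM + 1) for the 9 factors, with 1 coloured point per horse and Moon's 6-day SF library left out, and the 96-hour ISF libraries of Dealings and Dreamer placed by their labels. EGR2 spreads most, from -0.80 in Flash and -0.74 in Catnip to 0.70 in RimRun, and SPI1 stays between -0.14 and 0.13.

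Members also moved with each other from library to library. After removing group means (67 libraries), the correlation was 0.70 between CEBPB and BHLHE40, 0.67 between MAF and ZEB2 and 0.51 between CEBPA and EGR2, and -0.43 between EGR2 and ZEB2. These describe libraries that share horses, depth and cell composition, and no test was made. Over all 68 libraries, the named genes whose pattern was most like each member were MAP2K2 for SPI1 (r = 0.91), PTTG1IP for CEBPA (0.88), CDK9 for CEBPB (0.88) and PTPRB for MAF (0.89). For KLF4, IRF8, EGR2, BHLHE40 and ZEB2 they were DGKD (0.82), ADAMTS2 (0.81), CSF1 (0.85), SEC23B (0.90) and PRPS2 (0.95). The next were PNPLA2 (0.87), AGAP1 (0.87), ACVR1B (0.88), GAB1 (0.86), SSPO (0.81), ARHGAP17 (0.80), EPS8 (0.81), IL4R (0.88) and TCF12 (0.94), in the order SPI1, CEBPA, CEBPB, MAF, KLF4, IRF8, EGR2, BHLHE40, ZEB2. Libraries in these correlations share their time in culture. After removing group means, the correlations of these named genes ranged from 0.08 (SSPO with KLF4) to 0.82 (TCF12 with ZEB2). That of SEC23B with BHLHE40 was 0.34.

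Of 57 other listed transcription factors of blood cells, 54 were tested. ISF and SF differed in 1 of them at 48 hours (higher; 1.68% of all tested genes called), in 13 at 96 hours (7 higher, 6 lower; 10.5%), in 23 at 6 days (13 and 10; 30.2%) and in 19 at 10 days (5 and 14; 20.8%). BATF3, a dendritic cell factor that works with IRF8, was higher in ISF at 48 hours (1.46, FDR = 0.00508), 96 hours (1.27) and 6 days (1.22). IRF8 was lower in ISF from 96 hours on. At 10 days BATF3 did not pass (-0.05, FDR = 0.94), with means of 1.65 GeTMM in ISF and 1.95 in SF. BATF, an AP-1 factor of lymphocytes, was lower at 96 hours (-1.09), 6 days (-2.29) and 10 days (-2.36, FDR = 4.62e-08). BHLHE41, the paralogue of BHLHE40, went against it, at -1.82 at 96 hours (FDR = 0.00107) and -2.11 at 10 days (FDR = 0.00017). The other extremes were NR4A1 (1.31) at 96 hours, ETS2 (1.15) and CEBPE (-2.03) at 6 days, and ATF3 (1.04) and ID2 (0.66) at 10 days. Of 19 alternative analyses, 3 each lost the 10-day calls of ATF3 (without Dealings, Lurie or RimRun, FDR up to 0.121) and ID2 (without Dealings, Dreamer or RimRun, up to 0.233). A single one lost ETS2 at 6 days (compared groups alone, FDR = 0.111), BATF3 at 48 hours (pseudocount 0.1, 0.0577) and BATF at 96 hours (without Dealings, 0.0544). The 6-day call of CEBPE was lost in 4, namely with the compared groups alone and without Dreamer, Ollie or Moon's 6-day SF library.

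Genes known as targets of the members were counted at 6 days, when 30.2% of all tested genes were called. Of the SPI1 list, 3 of 7 gene models passed, namely BTK (-0.31) and both models of CD14 (1.81 and 1.10). Of the CEBPA list, which holds granule genes of neutrophil precursors, 4 of 5 passed, all lower in ISF: ELANE (-3.98), MPO (-3.12), CEBPE (-2.03) and GFI1 (-1.82). The neutrophil precursor markers, which include 3 of these genes, had a mean log2 level of 7.07 in SF and 4.48 in ISF at that time, and their part was not tested. Of the IRF8 list, 3 of 6 passed, BATF3 (1.22) upward and CIITA (-0.98) and CTSS (-0.49) downward. Of the CEBPB list, 1 of 5 tested genes passed, CXCL8 (2.42), and voom called 2. IL6 and PTGS2 of that list averaged below 1 GeTMM in both fluids. Of the ZEB2 list, ID2 (1.10) and CDH1 (-1.28) passed, and of the EGR list NAB1 (0.64) of 2. Means were low for CDH1 (0.0813 GeTMM in ISF and 2.64 in SF) and for the second CD14 model (1.99 and 0.317). Of the 7 MAF targets limma called 0, where 0 had an unadjusted p below 0.05 and voom called 0. The calls of NAB1, CEBPE and CTSS were lost in 10, 4 and 3 of 19 alternative analyses. Those of NAB1 and CEBPE were lost without Moon's 6-day SF library, among other settings (FDR up to 0.325 and 0.17). That of CTSS was lost with the compared groups alone or without Dealings or Flash (FDR up to 0.0985). At 10 days, when 20.8% of all tested genes were called, 3 of 7 SPI1, 2 of 5 CEBPA, 2 of 7 MAF, 2 of 6 IRF8, 1 of 5 CEBPB and 2 of 2 ZEB2 targets passed. Voom called 0 of the CEBPA targets and 2 of the CEBPB targets at that time. For the 2 EGR targets limma and voom called 0, and 0 had an unadjusted p below 0.05.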

How the data were processed

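RNA of 68 libraries (8 horses, 9 groups of fluid and time) was analysed. The authors aligned stranded paired-end reads to EquCab3.0 with STAR 2.7.2a, and the deposited values are GeTMM, an RPKM-type count per kilobase of gene scaled with edgeR's trimmed mean of M-values. The table held no columns outside these samples. Reads were recovered for depth: whole reads, within 0.02, for 14564 of 14570 tested genes (99.96%).

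Groups were compared with limma 3.58.1 (R 4.3.3; lmFit and eBayes with trend, two-sided) on log2(GeTMM + 1), in 1 fit of all libraries without a term for horse. Benjamini-Hochberg FDR was taken over the 14570 genes, and 18 comparisons were read. A pseudocount of 1 understates changes of low genes. The study tested counts, which the table does not give directly, so limma replaced its test. Tests were run on simulated counts drawn independently for each library. No effect of horse was simulated, so that check does not bear on leaving out the term for horse.

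Horse names pair the libraries: deviations from group means correlated at a median of 0.263 between libraries of the same horse (258 pairs) and -0.0397 between horses (1796 pairs), and 66 of 68 libraries most resembled other libraries of the same named horse. The fit with horse as a replicate block was an alternative, as were a pseudocount of 0.1, no filter, the compared groups alone, median-of-ratios scaling, library weights, voom on recovered reads and leaving out each horse or doubtful library.

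The members and all gene lists were chosen with earlier results of these data known. Genes named were all members, the 2 highest and 2 lowest called factors of the wider list per fluid comparison (mean of at least 1 GeTMM), listed targets called at 6 days, and the 2 named genes most correlated with each member. Single horses and libraries were singled out after their values were seen. One factor of the wider list is not reported here. No sequence is shown.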

Additional observations from a re-analysis of the deposited data

Results flagged for a closer look

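Of 81 groups of member values, 10 held a library farther from the rest than Dixon's 95% critical value allows, where chance flags about 1 in 20. Of these, 6 were the SF library of Moon at 6 days, which held 1064 GeTMM of SPI1 (highest of its group) and 40.6 of CEBPB, 3.10 of MAF, 0.488 of EGR2, 9.73 of BHLHE40 and 4.51 of ZEB2 (all lowest). The same library held the highest GeTMM sum of the series.

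RimRun stood apart at 96 hours in SF, at 894 GeTMM of SPI1 and 94.9 of BHLHE40. Dealings was the highest at 10 days in SF with 116 GeTMM of IRF8, and Flash was the highest at 0 hours with 30.3 GeTMM of BHLHE40.

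The change of the fluid difference of IRF8 between 48 hours and 10 days passed an interaction test at -0.73 on the log2 scale (limma, FDR = 0.0128), with ISF below SF in 6 of 7 horses at 48 hours and 7 of 7 at 10 days.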

How the results depend on the processing

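Of 50 called pairs of member and comparison, 36 kept their call in all 19 alternatives, 14 lost it in at least 1 and 0 changed direction, while 20 uncalled pairs passed in at least 1. Of 81 group means, 0 moved by over 1 SD when a horse was left out. That count was fixed in advance, since leaving out 1 library cannot move its group mean that far. It therefore says nothing about how stable the means were. Leaving out a horse or a doubtful library changed the number of members called for ISF against SF, which ranged from 0 to 1 (48 hours), 2 to 4 (96 hours), 3 to 5 (6 days) and 2 to 4 (10 days). In ISF it gave 5 to 8 from 0 to 48 hours, 1 to 1 from 48 to 96 hours, 0 to 1 from 96 hours to 6 days and 0 to 2 from 6 to 10 days. In SF it gave 3 to 4 from 48 to 96 hours, and for the change of the fluid difference from 48 hours to 10 days 0 to 2.

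For ISF against SF at 48 hours (1 member), a pseudocount of 0.1 or no filter gave 0, library weights 2 and the replicate block 2. With the replicate block, ISF against SF at 10 days gave 5, ISF from 48 to 96 hours 2, ISF from 6 to 10 days 2, SF from 48 to 96 hours 5, SF from 6 to 10 days 1, and the change of the fluid difference from 48 hours to 10 days 2. After the data were seen, 2 further blocked fits were added, as were the rerun of all alternatives for the listed genes and the horse shares and tallies without the doubtful libraries. With the labels of Dealings and Dreamer exchanged in ISF at 96 hours, the replicate block gave the same counts in each of these comparisons. Without Moon's 6-day SF library, it gave 2 for ISF against SF at 48 hours, 6 at 6 days and 5 at 10 days, 3 for ISF and 6 for SF from 48 to 96 hours, 2 for ISF from 6 to 10 days, and 3 for the change of the fluid difference from 48 hours to 10 days. With the compared groups alone, ISF from 6 to 10 days and SF from 96 hours to 6 days gave 0. Library weights gave 6 for ISF against SF at 6 days, 2 for ISF and 5 for SF from 48 to 96 hours, and 1, 1 and 2 for the change of the fluid difference from 48 to 96 hours, from 6 to 10 days and from 48 hours to 10 days. The causes of these shifts were not tested.

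Some uncalled differences between ISF and SF turned in sign. MAF at 48 hours was 0.035 with library weights (-0.17 otherwise). EGR2 at 6 days was -0.087 with library weights and -0.26 with the replicate block without Moon's SF library. Leaving out a horse or library gave -0.30 to 0.31 for EGR2 at 6 days, -0.00031 to 0.35 for EGR2 at 96 hours, -0.0091 to 0.67 for ZEB2 at 6 days and -0.17 to 0.043 for ZEB2 at 10 days.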

Other observations

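The mean log2(GeTMM + 1) of 4 cell cycle genes was 4.95 at 0 hours. At 96 hours and 6 days it was 4.15 and 3.97 in SF against 4.96 and 4.87 in ISF, and at 10 days 3.54 and 3.37. Erythroid markers (4 of 5 present) stood at 5.64 at 0 hours and at 0.28 in SF and 0.29 in ISF at 10 days. These levels were not tested.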
